A study of Mus musculus with 12 samples.

Results

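The genes described here are those of the major histocompatibility complex (MHC) class II antigen presentation pathway with their master regulator: H2-Aa, H2-Ab1, H2-Eb1, Cd74, H2-DMa, H2-DMb1, H2-Oa, H2-Ob and Ciita. These 9 genes, of 19324 gene symbols named by the array annotation, were taken by symbol, with every probe set that the annotation maps to them, which gave 19 of 45037 probe sets. A probe set is a group of short probes read together for 1 transcript. Of the 19 probe sets, 16 carry 1 gene symbol, and 3 carry 2 symbols, so that H2-DMb1 is measured only together with its neighbour H2-DMb2. Each of the other 8 genes is represented by its lead probe set, the one with the highest mean over all arrays, and the remaining probe sets are given beside it.

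RNA of cells from C57BL/10.RIII mice was measured on 12 Affymetrix arrays, 3 for each of 4 cell types. nFoxA1Treg, a regulatory population that takes its name from the transcription factor FoxA1, carries the labels CD4hi and PD-L1hi and is called neuron induced in their titles and natural in their cell type field. Treg are labelled CD4+ and TGFbeta+, and iFoxA1Treg, labelled CD4hi and PD-L1hi, were induced with interferon beta. EncT, the encephalitogenic T cells that drive experimental autoimmune encephalomyelitis, are labelled CD4+ and serve as the common comparison. The labels give no genotype, age or sex, and do not say whether the 3 replicates of a group came from separate animals or cultures, so every p-value measures only the spread between these samples, which may be technical.

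Class II molecules are pairs of an alpha and a beta chain that present peptides to CD4+ T cells. The invariant chain, encoded by Cd74, escorts new pairs to the endosome, where it is cut down to a short peptide in the groove. H2-DM then exchanges that peptide for others, and H2-DO, made of the H2-Oa and H2-Ob chains, restrains H2-DM. Ciita is the coactivator that drives the class II genes, and they depend on it to different degrees. B cells, dendritic cells and activated macrophages make class II molecules, and interferon gamma induces Ciita in many other cells. Mouse T cells, unlike activated human T cells, are generally regarded as making little or none.

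The promoters that Ciita acts on were also read, because class II genes typically hold an ordered pair of motifs there. No transcript level was compared with a motif. The factors of the RFX complex bind the X box, CREB can bind next to it, and NF-Y binds the Y box. Promoter entries of RefSeq (GRCm38.p6, a C57BL/6J genome and therefore of another MHC haplotype than C57BL/10.RIII) matched 6 of the 9 genes by symbol, without H2-Ab1, Cd74 and Ciita. The motifs were chosen after these promoters had been read and were searched on both strands. They were GNAAC and TGANG with any 3 bases between them for the X box, TGACGTCA for a palindromic CREB site and TGATTGG for the Y box, and the end of the X box motif can overlap the CREB site. Entries of 5 genes hold at least 1 motif and are shown from 150 bases before to 50 bases after the annotated start, 5′ to 3′ on the gene's strand, with the motifs in capitals.
H2-Aa, chr17:34287774-34287973, minus strand: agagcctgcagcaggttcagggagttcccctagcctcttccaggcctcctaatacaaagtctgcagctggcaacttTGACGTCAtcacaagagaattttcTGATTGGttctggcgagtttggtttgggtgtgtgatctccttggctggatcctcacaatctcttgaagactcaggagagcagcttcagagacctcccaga
H2-Eb1, chr17:34305717-34305916, plus strand: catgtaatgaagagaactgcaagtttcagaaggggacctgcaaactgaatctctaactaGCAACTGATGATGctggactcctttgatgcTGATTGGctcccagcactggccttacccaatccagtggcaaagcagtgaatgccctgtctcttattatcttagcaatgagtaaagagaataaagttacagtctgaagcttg
H2-DMb1, chr17:34153041-34153240, plus strand: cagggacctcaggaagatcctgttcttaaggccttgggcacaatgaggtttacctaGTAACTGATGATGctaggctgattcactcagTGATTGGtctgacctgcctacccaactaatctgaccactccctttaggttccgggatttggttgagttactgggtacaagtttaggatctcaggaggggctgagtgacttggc
H2-Ob, chr17:34238755-34238954, plus strand: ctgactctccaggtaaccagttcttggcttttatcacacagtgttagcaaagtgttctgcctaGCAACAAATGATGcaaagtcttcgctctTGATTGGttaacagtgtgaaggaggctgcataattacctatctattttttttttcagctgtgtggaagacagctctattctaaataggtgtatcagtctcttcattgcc
H2-Oa, chr17:34092229-34092428, plus strand: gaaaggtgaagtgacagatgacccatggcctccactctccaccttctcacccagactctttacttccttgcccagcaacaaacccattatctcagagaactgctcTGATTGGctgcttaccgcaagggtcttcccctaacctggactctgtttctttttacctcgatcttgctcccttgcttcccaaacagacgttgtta

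In H2-Eb1 the X box motif began 91 bases before the start and the Y box motif 61 bases before it. In H2-DMb1 they began 94 and 63 bases before it, and in H2-Ob 87 and 59 bases before it. H2-Aa held the palindromic CREB site and the Y box, and of these motifs H2-Oa held the Y box alone. In H2-Aa the letters GCAAC and TGACG, both parts of the X box motif, stand closer together than 3 bases. The search with a fixed gap of 3 bases therefore did not count an X box there. Both entries of H2-DMa lacked these letters within 300 bases. Among all 32851 promoter entries, 0.88% held the X box motif, 1.79% the CREB site and 7.82% the Y box motif. An X box motif followed within 50 bases by a Y box motif on the same strand occurred in 5 entries (0.0152%), of which 3 were H2-Eb1, H2-DMb1 and H2-Ob, and the others 1700048F04Rik on chromosome 5 and BC051142 on chromosome 17. Because the motifs were chosen after the member promoters had been read, that choice favoured matches in these genes. The shares over all entries are therefore no test of the members. A match of letters is a description and not a measured binding site.

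All array values below are log2(value + 16), where the value is the deposited probe set value on a linear scale, after quantile normalization. The scale has a floor of 4, and the offset of 16 makes differences of dim probe sets smaller than they would be without it. No detection calls were used, so a level near 4 is a level near the floor and not a proof of absence. Levels are compared between arrays for the same probe set and not between probe sets.

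The labelled cell types were checked first. Cd4, the coreceptor that binds class II molecules, averaged 10.46 ± 0.067 across nFoxA1Treg arrays, 10.41 ± 0.056 across Treg arrays, 5.13 ± 0.056 across the arrays labelled iFoxA1Treg and 10.59 ± 0.017 across EncT arrays (SD, n = 3 each). This level goes against the CD4hi label of iFoxA1Treg, so results are given for the arrays labelled iFoxA1Treg and not for a cell type. The arrays labelled iFoxA1Treg also correlated less with the other arrays (Pearson r over all probe sets 0.683 to 0.739) than the other 9 arrays did among themselves (0.815 to 0.850). Xist, transcribed in females, averaged 11.48 in nFoxA1Treg, 11.53 in Treg, 4.37 in the arrays labelled iFoxA1Treg and 11.08 in EncT, and the Y-linked gene Eif2s3y averaged 4.19, 4.39, 9.68 and 4.41 in that order, so sex and the label iFoxA1Treg cannot be told apart. The deposited array medians ran from 4.64 to 4.84, and precision is limited by the 3 arrays in each group.

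Among nFoxA1Treg, Treg and EncT, transcripts of the classical class II chains and of the invariant chain averaged lowest in nFoxA1Treg, intermediate in Treg and highest in EncT, with no call between nFoxA1Treg and Treg on all arrays, and the mean differences of H2-DMa, H2-Oa, H2-Ob and Ciita were smaller. H2-Aa, the alpha chain of the I-A molecule, was 4.0, 4.47 and 5.52 in nFoxA1Treg, 6.01, 5.69 and 5.6 in Treg, and 6.24, 6.71 and 6.28 in EncT. The 3 groups did not overlap, and nFoxA1Treg replicate 3 was the highest of its group, while replicate 1 lay at the floor. H2-Ab1, the beta chain of I-A, was 4.42, 4.16 and 5.03 in nFoxA1Treg, 5.61, 5.19 and 5.11 in Treg, and 5.96, 6.24 and 6.0 in EncT. The same order held, again without overlap. H2-Eb1, the beta chain of the I-E molecule, was 4.46, 4.71 and 5.98 in nFoxA1Treg, 5.93, 5.74 and 5.92 in Treg, and 6.20, 6.61 and 6.40 in EncT. Here nFoxA1Treg replicate 3 lay above all 3 Treg arrays, so those groups overlapped, while both lay below EncT. Cd74, the invariant chain, was 5.70, 6.13 and 7.06 in nFoxA1Treg, 7.46, 7.12 and 7.09 in Treg, and 8.17, 8.34 and 8.04 in EncT. Replicate 3 of nFoxA1Treg lay just below the lowest Treg array, and no groups overlapped.

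**Figure D1:**
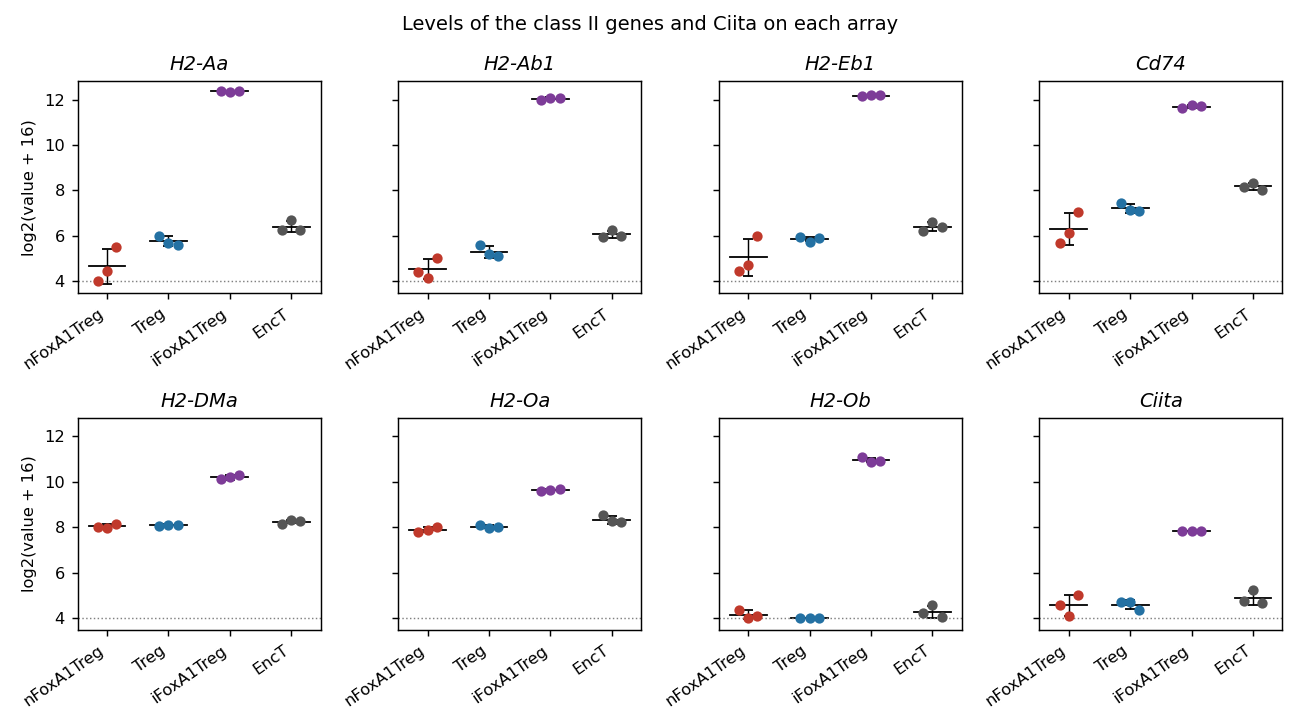
Levels of the 8 lead probe sets on every array, as log2(value + 16) on the vertical axis, with 1 point per array, a line at the group mean and bars of 1 SD (n = 3 each). The dotted line at 4 is the floor of the scale. The arrays labelled iFoxA1Treg stood above all others in each panel, and H2-Aa, H2-Ab1, H2-Eb1 and Cd74 averaged lowest in nFoxA1Treg, followed by Treg and then EncT.

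nFoxA1Treg against EncT sets the FoxA1-named regulatory cells beside the T cells that drive disease. Of the 8 genes 5 fell, 0 rose and 3 did not pass the test (limma, Benjamini-Hochberg over all 45037 probe sets, adjusted p under 0.05), where 5.10% of all probe sets fell and 4.90% rose. All probe sets include many dim or unannotated ones, unlike the lead probe sets. With 1 lead probe set per gene tested, 1370 of 18193 fell and 1010 rose. Cd74 fell by 1.89 on this log2 scale (SE 0.23, adjusted p = 1.10e-04), H2-Aa fell by 1.74 (SE 0.26, adjusted p = 5.43e-04), H2-Ab1 fell by 1.53 (SE 0.18, adjusted p = 7.60e-05) and H2-Eb1 fell by 1.36 (SE 0.26, adjusted p = 0.00330). These SEs pool the spread of all 4 groups, and for H2-Aa the SD was 0.77 in nFoxA1Treg and 0.024 in the arrays labelled iFoxA1Treg. Fitted by limma on the arrays of these 2 groups alone, H2-Aa had an adjusted p of 0.0195. H2-Oa, the alpha chain of H2-DO, fell less, by 0.45 (SE 0.084, adjusted p = 0.00298). The median over the 8 genes was -0.90, against 0.0060 over all probe sets, and the 2 groups did not overlap for 6 of the 8 genes, against 24.5% of all probe sets.

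The genes that did not pass were H2-DMa, H2-Ob and Ciita. H2-DMa, the alpha chain of the peptide exchanger, was 8.0, 7.98 and 8.13 in nFoxA1Treg and 8.15, 8.30 and 8.28 in EncT, without overlap and with a difference of -0.20 (95% interval -0.35 to -0.056, adjusted p = 0.0811). Ciita was 4.56, 4.11 and 5.02 in nFoxA1Treg and 4.75, 5.24 and 4.68 in EncT, a difference of -0.33 (95% interval -0.74 to 0.086, adjusted p = 0.371), and the groups overlapped close to the floor. H2-Ob, the beta chain of H2-DO, stayed at 4.36, 4.0 and 4.08 in nFoxA1Treg and at 4.23, 4.56 and 4.05 in EncT (adjusted p = 0.635), below a level of 5 on every array of both groups. Without an offset, the H2-Aa difference was -5.37 and lost its call (adjusted p = 0.0963), and the H2-Eb1 call ended when only the arrays of these 2 groups were fitted (adjusted p = 0.0514). On the scale without an offset H2-Ab1 changed by -3.22 and H2-Eb1 by -2.27, both still called.

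Treg against EncT is the comparison of conventional regulatory with disease-driving T cells. H2-Ab1, Cd74 and H2-Oa fell, 0 of the 8 rose and 5 did not pass, where 4.50% of all probe sets fell and 3.93% rose. With 1 lead probe set per gene tested, 1249 of 18193 fell and 736 rose. Cd74 fell by 0.96 (SE 0.23, adjusted p = 0.0149), H2-Ab1 by 0.76 (SE 0.18, adjusted p = 0.0134) and H2-Oa by 0.31 (SE 0.084, adjusted p = 0.0314). H2-Aa differed by -0.64 (adjusted p = 0.154) and H2-Eb1 by -0.54 (adjusted p = 0.243), although neither overlapped with EncT. H2-DMa was 8.04, 8.09 and 8.11 in Treg, a difference of -0.16 (adjusted p = 0.191), and Ciita was 4.69, 4.72 and 4.34, a difference of -0.30 (95% interval -0.71 to 0.11, adjusted p = 0.425). H2-Ob lay at the floor in Treg, at 4.01, 4.0 and 4.0. The groups did not overlap for 7 of the 8 genes, against 24.4% of all probe sets. All 3 calls ended without Treg replicate 2, where 0 genes were called, and likewise without Treg replicate 3. Without an offset the calls of H2-Ab1 (adjusted p = 0.309) and Cd74 (adjusted p = 0.0674) ended, and that of H2-Oa ended when the fit left out the arrays labelled iFoxA1Treg (adjusted p = 0.0628).

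The difference between the regulatory populations was tested directly as nFoxA1Treg against Treg. None of the 8 genes was called by limma, with 7 probe sets (0.0155%) called in the whole table. An unadjusted p under 0.05 was reached by 4, H2-Aa, H2-Ab1, H2-Eb1 and Cd74, all lower in nFoxA1Treg, where 4.30% of all probe sets reached it and 2.21% did so while lower. H2-Aa differed by -1.10 (95% interval -1.65 to -0.55, adjusted p = 0.658), Cd74 by -0.93 (-1.41 to -0.44, adjusted p = 0.784), H2-Eb1 by -0.81 (-1.36 to -0.26, adjusted p = 0.999) and H2-Ab1 by -0.77 (-1.14 to -0.40, adjusted p = 0.570). The intervals of H2-DMa (-0.19 to 0.11), H2-Oa (-0.32 to 0.041) and Ciita (-0.43 to 0.39) spanned 0. The 2 groups did not overlap for 3 of the 8 genes, against 10.8% of all probe sets. For the lead probe sets 1 array decided this comparison: without nFoxA1Treg replicate 3, 4 of the 8 genes were called lower, among 41 probe sets called in the whole table. The differences were then -1.53 for H2-Aa (adjusted p = 6.49e-04), -1.31 for Cd74 (adjusted p = 4.85e-04), -1.27 for H2-Eb1 (adjusted p = 1.72e-04) and -1.02 for H2-Ab1 (adjusted p = 0.00837). Each replicate was left out in turn, and this array was singled out after its values were seen. It was the highest of its group for these 4 genes, so its removal was bound to enlarge the differences. These calls therefore add no support of their own. That array also had the highest summed level of its group for the class II genes (733), B cell markers (276), macrophage markers (150) and dendritic cell markers (622), lists described below, and their part in the difference was not tested. The brightest gene of the dendritic cell list was Batf3, which T cells also express, at 8.23, 8.20 and 8.68 in nFoxA1Treg. Most macrophage markers lay near the floor there, so these sums do not show more antigen-presenting cells in that array.

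**Figure D2:**
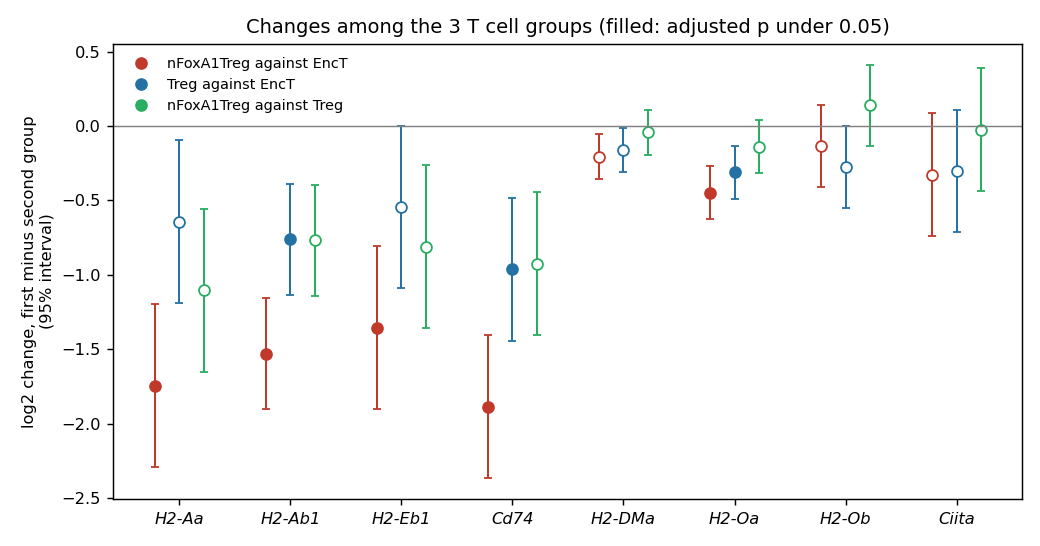
Log2 change of each lead probe set (vertical axis, first-named minus second-named group, bars of 95% intervals) in the 3 comparisons among nFoxA1Treg, Treg and EncT. Filled points passed an adjusted p of 0.05: 5 of 8 genes in nFoxA1Treg against EncT, 3 of 8 in Treg against EncT and 0 in nFoxA1Treg against Treg.

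The other probe sets of these genes differed in how far they followed the lead. Beyond the lead, 2 H2-Aa probe sets fell in nFoxA1Treg against EncT, by 1.25 and 1.06, and 2 further H2-Ab1 probe sets fell, by 0.84 and 0.93. The fourth H2-Aa probe set averaged 4.73 ± 0.11 over nFoxA1Treg and 4.62 ± 0.12 over EncT (SD, n = 3 each) and did not pass (adjusted p = 0.631). In Treg against EncT the 2 further H2-Aa probe sets passed (adjusted p = 0.00511 and 0.00931) where the lead did not. Of all 19 probe sets, 9 fell and 0 rose in nFoxA1Treg against EncT, 6 fell and 0 rose in Treg against EncT, and 0 were called in nFoxA1Treg against Treg. The brighter of the probe sets shared by H2-DMb1 and H2-DMb2 averaged 5.29 ± 0.078 over nFoxA1Treg, 5.11 ± 0.26 over Treg and 5.39 ± 0.21 over EncT, and the dimmer one 4.89 ± 0.22, 4.50 ± 0.039 and 4.68 ± 0.13 in that order (SD, n = 3 each). Neither was called in any comparison among these groups, although the dimmer one did not overlap between nFoxA1Treg and Treg (0.39, adjusted p = 0.999).

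**Figure D3:**
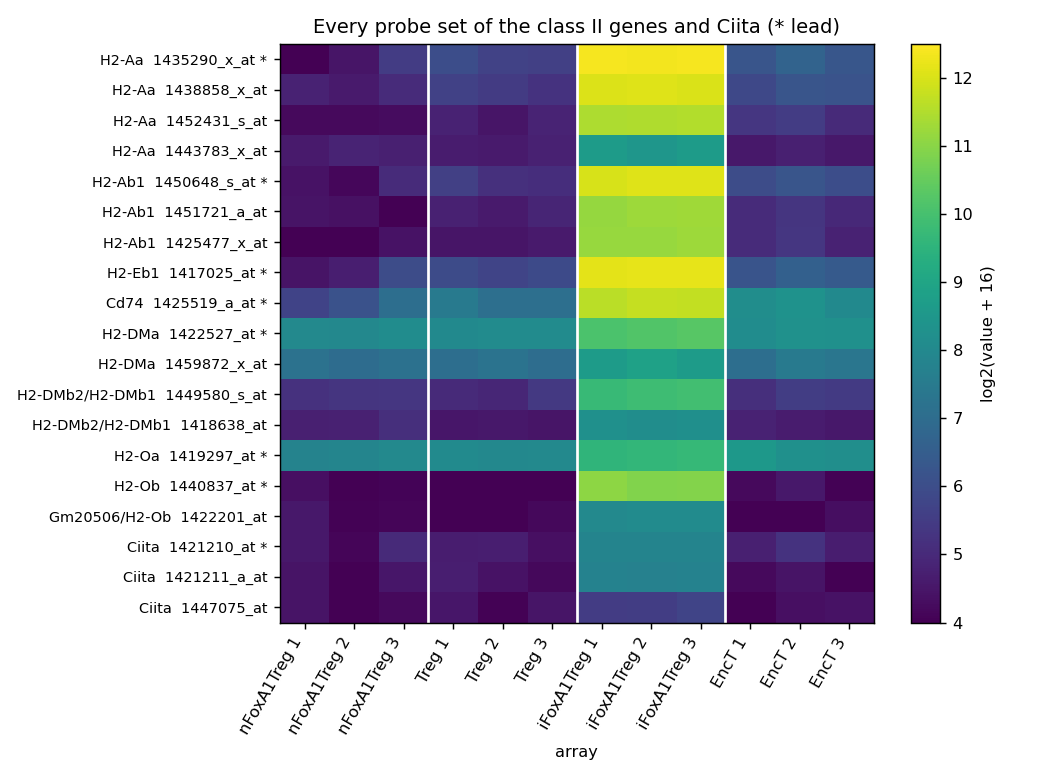
Level of every one of the 19 probe sets (rows, named by gene and probe set, * for the lead) on the 12 arrays (columns), with colour for log2(value + 16). The columns of the arrays labelled iFoxA1Treg are brighter in every row, and the lead rows of H2-Aa, H2-Ab1, H2-Eb1 and Cd74 are darker in nFoxA1Treg than in EncT.

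In the arrays labelled iFoxA1Treg all 8 genes stood far above the other groups and did not overlap with them, where 58.0% of all probe sets did not overlap with EncT, 61.1% with Treg and 61.3% with nFoxA1Treg. All 8 were called higher against EncT, where 25.3% of all probe sets were higher and 28.0% lower, against Treg (25.7% and 28.6%) and against nFoxA1Treg (25.6% and 29.2%), comparisons that share the arrays labelled iFoxA1Treg. With 1 lead probe set per gene tested, 5465 of 18193 were higher than in EncT and 5363 lower. H2-Aa was 12.39, 12.34 and 12.37, H2-Ab1 11.97, 12.07 and 12.07, and H2-Eb1 12.15, 12.18 and 12.20 in these arrays. Each of these spanned a narrower range than in nFoxA1Treg. Against EncT the difference was 5.96 for H2-Aa (SE 0.26, adjusted p = 9.74e-12), 5.97 for H2-Ab1 (SE 0.18, adjusted p = 8.29e-14) and 5.77 for H2-Eb1 (SE 0.26, adjusted p = 1.42e-11). Cd74, at 11.63, 11.74 and 11.71, was higher by 3.51 (SE 0.23, adjusted p = 1.43e-09).

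The changes of the accessory chains in these arrays were measured from unlike levels in EncT, so their sizes are not compared between probe sets. H2-Ob differed from EncT by 6.68 (SE 0.13, adjusted p = 6.14e-16), a size that depends on the offset because EncT lies near the floor (4.91 with an offset of 64 and 9.85 without one), with 11.07, 10.88 and 10.93 in the arrays labelled iFoxA1Treg. Its partner H2-Oa, at 9.57, 9.62 and 9.70, was higher by 1.30 (SE 0.084, adjusted p = 1.51e-09). H2-DMa, at 10.10, 10.19 and 10.30, was higher by 1.95 (SE 0.070, adjusted p = 8.99e-13), and the probe sets shared by H2-DMb1 and H2-DMb2 by 4.46 and 3.55. Ciita, at 7.83, 7.84 and 7.84, was higher by 2.95 (SE 0.19, adjusted p = 1.77e-09), and its remaining probe sets by 3.53 and 1.35. The size for its lead also depends on the offset (1.83 with an offset of 64 and 4.02 without one). The whole set of 19 probe sets was called higher in each of the 3 comparisons.

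On the linear scale each gene can be given as a share of its own mean in the arrays labelled iFoxA1Treg. H2-Aa averaged 0.228% in nFoxA1Treg (0.000854% to 0.566% over the arrays), 0.738% in Treg (0.619% to 0.920%) and 1.33% in EncT (1.14% to 1.68%). Cd74 averaged 2.10%, 4.08% and 8.38% in the same order, and Ciita 3.96%, 3.85% and 6.62%. The nFoxA1Treg means rested on replicate 3: without it, a setting chosen after seeing the data, they were 0.0592% for H2-Aa, 1.37% for Cd74 and 2.08% for Ciita. H2-DMa averaged 21.3%, 22% and 24.8% and H2-Oa 28.4%, 31.5% and 39.7%. H2-Ob averaged 0.0903% in nFoxA1Treg, 0.00263% in Treg and 0.183% in EncT, where single arrays reached 0.385%, and without nFoxA1Treg replicate 1 or EncT replicate 2 its means there were 0.0220% and 0.0825%. The background of each probe set is part of its share and was not measured, so a larger share can hold more background.

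Genes near the members in the MHC class II region gave the same split by array. H2-Ea, the alpha chain of I-E, is annotated as a transcribed pseudogene in the C57BL/6J reference. It was 10.34, 10.55 and 10.36 in the arrays labelled iFoxA1Treg, against 4.41, 4.37 and 4.26 in EncT (adjusted p = 5.75e-17). In nFoxA1Treg it was 4.0 on all 3 arrays, lower than EncT by 0.35 (adjusted p = 0.0293), and in Treg 4.08, 4.12 and 4.01. H2-DMb2 averaged 11.58 ± 0.099 over the arrays labelled iFoxA1Treg and 5.90 ± 0.049 over EncT (SD, n = 3 each), and was at 5.90 ± 0.059 in nFoxA1Treg and 5.93 ± 0.081 in Treg. H2-Eb2 was 4.57 in nFoxA1Treg, 4.70 in Treg, 5.35 in the arrays labelled iFoxA1Treg and 4.79 in EncT, on average. Of these 3 genes 1 fell in nFoxA1Treg against EncT, 0 were called in Treg against EncT, and 3 were higher in the arrays labelled iFoxA1Treg. Of all probe sets 5.10% fell in nFoxA1Treg against EncT and 4.50% in Treg against EncT. In the arrays labelled iFoxA1Treg 25.3% were higher than in EncT and 28.0% lower, and these shares apply to the lists below as well.

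Of the factors that bind class II promoters, 1 of 8 fell and 0 rose in nFoxA1Treg against EncT. This was Rfx5, the RFX subunit, at 7.78, 7.76 and 7.82 in nFoxA1Treg, against 8.42, 8.11 and 8.18 in EncT (-0.45, SE 0.079, adjusted p = 0.00202). Rfx5 was also the 1 gene of this list that fell in Treg, by 0.32 (adjusted p = 0.0206). The median of the list was 0.033 in nFoxA1Treg against EncT and 0.065 in Treg against EncT. The NF-Y subunit Nfyc was 9.09 in nFoxA1Treg and 8.94 in EncT, the RFX subunit Rfxap 7.59 and 7.78, the NF-Y subunit Nfyb 9.19 and 9.14, and Creb1 9.36 and 9.34, none of them called. In the arrays labelled iFoxA1Treg 1 of the 8 was higher than in EncT and 5 were lower, Rfx5 by 0.48 and Nfyb by 0.58.

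Of 13 measured regulators of Ciita, 4 fell and 0 rose in nFoxA1Treg against EncT (median -0.27), and 5 fell and 0 rose in Treg against EncT (median -0.24). Irf1, the interferon gamma induced factor that acts on a Ciita promoter, averaged 9.46 ± 0.023 over nFoxA1Treg, 9.44 ± 0.016 over Treg and 10.04 ± 0.21 over EncT (SD, n = 3 each). It fell by 0.58 in nFoxA1Treg (adjusted p = 3.05e-04) and by 0.60 in Treg (adjusted p = 2.74e-04). Socs1, the inhibitor of interferon signalling, fell by 0.89 (adjusted p = 2.64e-04) and 0.77 (adjusted p = 9.82e-04) in the same comparisons. The interferon gamma receptor chain Ifngr1 fell by 0.27 (adjusted p = 0.00919) and 0.38 (adjusted p = 0.00107). Prdm1, a repressor of Ciita in plasma cells, fell as well, by 0.55 (adjusted p = 8.43e-04) and 0.61 (adjusted p = 5.51e-04). The kinase Jak1 was 10.70 in nFoxA1Treg, 10.68 in Treg and 10.72 in EncT, and was not called. In the arrays labelled iFoxA1Treg 9 of the 13 were higher than in EncT and 3 lower, with Irf1 higher by 1.20 and Prdm1 lower by 1.60.

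Among genes of class II processing and turnover, 4 of 13 fell and 0 rose in nFoxA1Treg against EncT (median -0.069), and 1 fell and 0 rose in Treg against EncT (median -0.087). Ctss encodes cathepsin S, which trims the invariant chain, and averaged 10.46 ± 0.51 over nFoxA1Treg, 10.94 ± 0.15 over Treg and 11.11 ± 0.39 over EncT (SD, n = 3 each), a fall of 0.65 in nFoxA1Treg (adjusted p = 0.0483). Ctsh, cathepsin H, fell by 0.55 in nFoxA1Treg (adjusted p = 6.47e-04) and by 0.41 in Treg (adjusted p = 0.00596). Ctsl, the cathepsin L gene, fell by 0.69 in nFoxA1Treg (adjusted p = 0.00207). Sppl2a, the protease that removes the membrane stub of the invariant chain, fell by 0.27 (adjusted p = 0.0461). The bright proteases Ctsb, at 11.31 in nFoxA1Treg and 11.27 in EncT, and Ctsd, at 10.85 and 10.90, were not called there. In the arrays labelled iFoxA1Treg 9 of the 13 were higher than in EncT and 2 lower, with Ctsh higher by 4.27, Ctsl by 4.69 and Ctss by 1.62.

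Genes whose products bind class II molecules or CD74 had 2 of 6 lower and 0 higher in nFoxA1Treg against EncT (median -0.12), and the same count in Treg against EncT (median -0.15). Mif, a ligand of CD74, fell by 0.33 in both (adjusted p = 0.0289 and 0.0327). Cxcr4, a coreceptor for MIF, fell by 0.25 (adjusted p = 0.0314) and 0.26 (adjusted p = 0.0297). Cd44, a signalling partner of CD74, averaged 11.19 in nFoxA1Treg, 11.17 in Treg and 11.29 in EncT, and was not called. In the arrays labelled iFoxA1Treg 1 of these 6 was higher than in EncT and 5 lower. No gene of any of these lists, or of the marker lists that follow, was called in nFoxA1Treg against Treg. In that comparison 7 probe sets (0.0155%) were called in the whole table, so this absence says little about the lists.

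Some markers of antigen-presenting cells were also lower, while most did not pass the test. Of all probe sets 5.10% fell in nFoxA1Treg against EncT and 4.50% in Treg against EncT. The T cell markers described below also had 3 of 12 lower in both comparisons. In nFoxA1Treg against EncT the falls of those T cell markers were smaller than those of Ighm, Cd79b and Ms4a1. The 13 measured B cell markers had 3 lower and 0 higher in nFoxA1Treg against EncT (median -0.077) and 1 lower and 0 higher in Treg against EncT (median -0.088). Ighm, the heavy chain of IgM, was 5.89, 6.16 and 6.36 in nFoxA1Treg, 6.86, 6.48 and 6.57 in Treg, and 8.14, 7.63 and 7.02 in EncT, a fall of 1.46 in nFoxA1Treg (adjusted p = 2.87e-04) and of 0.96 in Treg (adjusted p = 0.00651). The receptor chain Cd79b fell by 0.69 (adjusted p = 0.0142) and the surface protein Ms4a1 by 0.80 (adjusted p = 0.0289) in nFoxA1Treg. Cd22 and the transcription factor Ebf1 averaged 5.91 and 5.91 in nFoxA1Treg and 5.93 and 5.95 in EncT, not called. Both rank as bright only through the arrays labelled iFoxA1Treg. Over the other arrays Cd22 ran from 5.85 to 6.03, which may be background, so a fall could hardly be seen. The summed linear level of the B cell markers ran from 203 to 276 in nFoxA1Treg, 262 to 304 in Treg and 388 to 462 in EncT, and 7 of the 13 lay below a level of 5 on every nFoxA1Treg and Treg array, including Cd79a and Cd79b, against 4 in EncT.

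Macrophage, monocyte and microglia markers had 5 of 14 lower and 0 higher in nFoxA1Treg against EncT (median -0.32), and 4 lower and 0 higher in Treg against EncT (median -0.12). Lyz2, lysozyme, was 4.22, 4.11 and 4.35 in nFoxA1Treg, 4.81, 4.40 and 4.29 in Treg, and 6.25, 5.61 and 5.33 in EncT, a fall of 1.5 in nFoxA1Treg (adjusted p = 1.08e-04) and of 1.23 in Treg (adjusted p = 6.63e-04). The oxidase subunit Cybb fell by 1.35 (adjusted p = 6.46e-05) and 0.93 (adjusted p = 0.00145), and the adaptor Tyrobp by 1.15 in both (adjusted p = 0.00848 and 0.00989). The surface markers Adgre1 and Fcgr1 averaged 5.52 and 5.16 in nFoxA1Treg and 5.63 and 5.23 in EncT, not called. They rank as bright only through the arrays labelled iFoxA1Treg. Over the other arrays Adgre1 ran from 5.48 to 5.69, which may be background, so a fall could hardly be seen. The list summed to 118 to 150 in nFoxA1Treg, 165 to 167 in Treg and 248 to 317 in EncT, and 10, 8 and 6 of the 14 lay below 5 on every array in that order, including Itgam, Mrc1 and the 3 C1q chains in all of them.

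Dendritic cell markers had 2 of 11 lower and 0 higher in nFoxA1Treg against EncT (median -0.11) and 1 lower and 0 higher in Treg against EncT (median -0.051). Ccl22, a chemokine, was 4.67, 4.75 and 6.12 in nFoxA1Treg, 6.90, 6.25 and 6.38 in Treg, and 6.91, 7.47 and 7.33 in EncT, a fall of 2.06 in nFoxA1Treg (adjusted p = 3.49e-04), with replicate 3 the highest of its group as for H2-Aa. Cd83, which stabilises class II molecules at the surface of dendritic cells and is also made by activated lymphocytes, fell by 1.02 in nFoxA1Treg (adjusted p = 0.00194) and by 0.74 in Treg (adjusted p = 0.0180). The integrin Itgax was 4.62 in nFoxA1Treg and 5.10 in EncT, Fscn1 6.69 and 6.68, and the factor Batf3, which T cells also express, 8.37 and 8.13, none of them called. The list summed to 447 to 622 in nFoxA1Treg, 600.0 to 643 in Treg and 538 to 697 in EncT.

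T cell markers were close to equal in the 3 groups in sum, at 24552 to 25252 in nFoxA1Treg, 25509 to 25917 in Treg and 25622 to 27880 in EncT. Of 12 measured, 3 fell and 0 rose in nFoxA1Treg and likewise in Treg against EncT (medians -0.14 and -0.12). These were Bcl11b, lower by 0.39 in nFoxA1Treg, the receptor chain Cd247, lower by 0.23, and the kinase Zap70, lower by 0.23. The bright markers Cd3d, Cd3g and Thy1 averaged 12.09, 11.97 and 12.31 in nFoxA1Treg and 12.09, 12.02 and 12.28 in EncT. In these bulk samples fewer class II positive cells and less class II RNA per cell cannot be told apart, and the part of the B cell, macrophage and dendritic cell transcripts in the class II differences was not tested.

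In the arrays labelled iFoxA1Treg, 13 of 13 B cell markers and 14 of 14 macrophage markers were higher than in EncT, and 12 of 12 T cell markers were lower. The B cell list summed to 34174 to 37336 and the macrophage list to 21711 to 22880 in these arrays, with 0 markers of either list below 5 on every array. Ighm averaged 13.28, Ms4a1 12.24, Lyz2 12.36 and Adgre1 12.06. Dendritic cell markers had 5 of 11 higher and 3 lower than in EncT, with Cd83 at 9.52 and Itgax at 4.72. Of all probe sets 25.3% were higher and 28.0% lower in this comparison, so the dendritic cell share that was lower lay near that of the whole table. T cell markers summed to 6629 to 6927, with Cd3d at 10.71 and Thy1 at 8.71. The class II genes summed to 21158 to 21822 in the arrays labelled iFoxA1Treg, against 1011 to 1154 in EncT, and the part of these other cell types' transcripts was not tested.

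**Figure D4:**
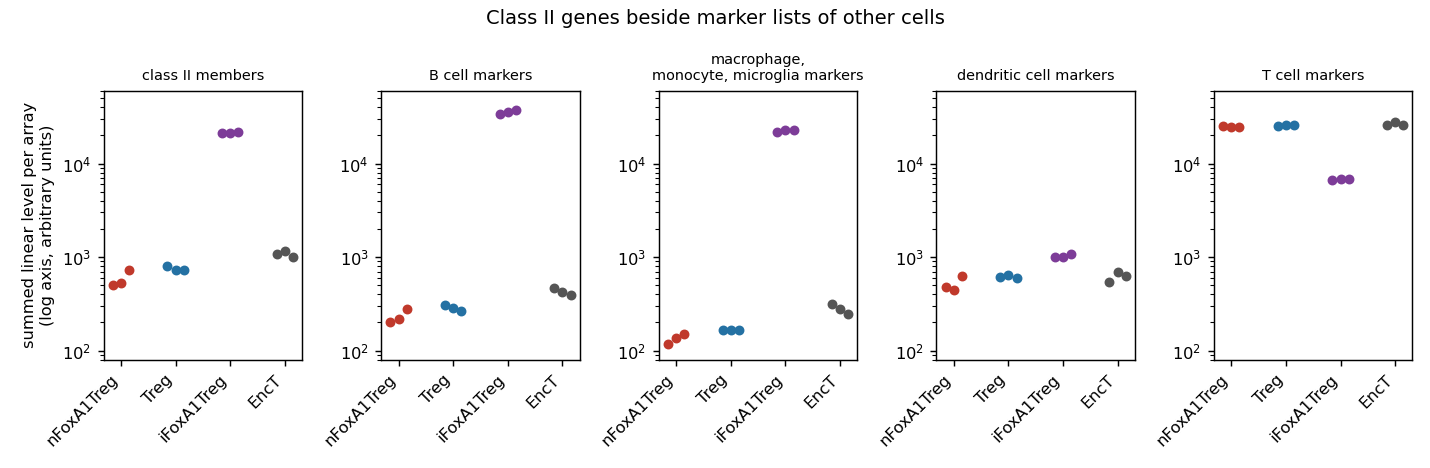
Summed linear level of the class II genes (8 lead probe sets) and of 4 marker lists on each array (points, log axis, arbitrary units), by group. In nFoxA1Treg the class II sum was 504 to 733, against 1011 to 1154 in EncT, and the B cell and macrophage sums were lower in nFoxA1Treg than in EncT as well, while the T cell sum was lower only in the arrays labelled iFoxA1Treg by a visible margin.

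The genes whose pattern was most like that of the class II genes over the 9 arrays of nFoxA1Treg, Treg and EncT were found by Pearson correlation with the mean of H2-Aa, H2-Ab1, H2-Eb1 and Cd74, among 730 genes with an SD of at least 0.3. They were Ypel3 (r = 0.972), the interleukin 7 receptor Il7r (r = 0.961), the immunoglobulin kappa gene Igkv8-30 (r = 0.961), the cytokine Il5 (r = 0.959) and the phosphatase Dusp2 (r = 0.937). The 9 points share their 3 groups, so these values describe the same group differences. Igkv8-30 was 4.16, 4.50 and 5.30 in nFoxA1Treg, 5.58, 4.81 and 5.07 in Treg, and 6.04, 6.31 and 6.11 in EncT. Il7r, an abundant T cell transcript, was 10.46, 10.52 and 10.80 in nFoxA1Treg, 11.08, 11.01 and 10.87 in Treg, and 11.44, 11.33 and 11.38 in EncT. In each of the 5 genes nFoxA1Treg had the lowest mean of the 3 groups and EncT the highest, an order that their selection by this pattern favours. Among the members outside that mean, r was 0.854 for H2-DMa, 0.845 for H2-Oa, 0.657 for Ciita and 0.208 for H2-Ob.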

How the data were processed

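Total RNA was measured on Affymetrix arrays, and the authors deposited 1 table of log2 probe set values, with PLIER named in the submitters' processing notes. How PLIER was run, and whether arrays were normalized, is not given in the sources used here, and the log2 scale was read from the values. Scanner files were not used here. The table was put on a linear scale, 16 was added, log2 was taken and arrays were quantile normalized. limma 3.58.1 in R 4.3.3 was fitted to all 45037 probe sets without a filter (1 mean per group, 12 arrays, 8 residual degrees of freedom, eBayes with an intensity trend), with two-sided p-values adjusted by Benjamini-Hochberg within each of 6 comparisons and a threshold of 0.05. The fit was tested on simulated data. Errors are standard deviations, and SE is that of a log2 change.

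Gene names came from the platform annotation: 34945 probe sets carry 1 gene, 932 several and 9160 none. Of 108 list entries 7 were not analysed here. Named genes were the members, and in each list the 3 with the smallest adjusted p in nFoxA1Treg against EncT and the 3 brightest, plus the 5 most alike in pattern. Genes named outside this rule (Xist, Eif2s3y, Cd79a, Itgam, Mrc1, the C1q chains) were added after their values were seen. Members and lists were chosen with earlier results of these data known. Alternatives were the offset, the normalization, a filter, 1 probe set per gene, the arrays fitted, the replicate block, array weights and leaving out each replicate.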

Additional observations from a re-analysis of the deposited data

How the results depend on the processing

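All 8 genes kept their calls in each comparison of the arrays labelled iFoxA1Treg under every alternative run. Calls in nFoxA1Treg against EncT numbered 4 to 6 of 8, against 5, under the alternatives run. In Treg against EncT, leaving out 1 replicate gave 0 to 3 calls, with 0 without Treg replicate 2 or 3, and the other alternatives gave 2 to 4. In nFoxA1Treg against Treg, leaving out 1 replicate gave 0 to 4 calls, with 4 without nFoxA1Treg replicate 3, and array weights gave 1 call, H2-Aa (-1.26, adjusted p = 0.0406). Differences near 0 turned sign: H2-Ob in nFoxA1Treg against EncT was 0.0069 without EncT replicate 2, and Ciita in nFoxA1Treg against Treg was 5.5e-04 with an offset of 64, 0.20 without nFoxA1Treg replicate 2, 0.028 without Treg replicate 1 and 0.046 without Treg replicate 2. Leaving out 1 replicate moved these differences between -0.25 and 0.0069 for H2-Ob and between -0.25 and 0.20 for Ciita. H2-Ob in Treg against EncT was called without an offset (-8.08, adjusted p = 0.0481). The causes were not tested.

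With the replicate number as a block the counts of member calls stayed at 5, 3, 0 and 8, and the numbers were not taken to pair the arrays: deviations of same-numbered arrays correlated from -0.161 to 0.165 over 18 pairs, over 0.1 in 4, and 6 of 12 arrays correlated best with one of their own number. Over the whole table, calls in nFoxA1Treg against EncT were 4502, against 1984 with only those arrays, 2380 with 1 probe set per gene, 2614 without nFoxA1Treg replicate 1 and 2646 without replicate 2. In Treg against EncT they were 3795, against 2003, 1985, and 1976 and 2109 without Treg replicates 2 and 3. In nFoxA1Treg against Treg they were 7, against 4 with the filter or 1 probe set per gene, 26 with array weights, 41 without nFoxA1Treg replicate 3, and 8 without an offset, of which 2 were higher. With 1 probe set per gene, which tests fewer, calls in the arrays labelled iFoxA1Treg were 10828 against EncT (24037 otherwise), 11027 against Treg (24433) and 11143 against nFoxA1Treg (24685). Dim members, above all H2-Ob and Ciita outside the arrays labelled iFoxA1Treg, lie too near the floor for small differences to be seen.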
